A study of Mus musculus with 8 samples.

Results

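Replication-dependent histone genes were described in CD8+ tumor-infiltrating lymphocytes (TILs) of wildtype (WT) and LSD1-deficient (KO) mice. The members were all genes of the count table whose symbol begins with Hist1h, Hist2h, Hist3h or Hist4h and whose counts over the 8 samples sum to 20 or more. This rule took 61 of 55335 genes, out of 70 genes with such a symbol. The 61 members were 6 linker histone H1 genes, 15 H2A, 16 H2B, 11 H3 and 13 H4 genes.

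RNA was sequenced from 4 WT samples, Lsd1 f/f without Cre, and 4 KO samples, Cd4-Cre+ Lsd1 f/f, all from C57BL/6 background mice carrying subcutaneous tumors of MC38, a mouse colon carcinoma line. Cd4-Cre is active from the CD4+CD8+ stage of thymic development, so LSD1, a histone demethylase encoded by *Kdm1a*, was deleted in CD4+ as well as CD8+ T cells, and the floxed alleles were shared by both genotypes. Between 10000 and 20000 T cells (CD45.2+ and TCRβ+) that were CD8+, CD44+ and PD-1+ were sorted per sample, with 2 mice pooled in each WT sample and 1 mouse in each KO sample. The tumors were taken on day 18 according to the extraction protocol and on day 14 according to the design text.

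Replication-dependent histone genes supply the histones that package newly copied DNA, and their messenger RNAs build up in S phase and are degraded when replication stops. Most of them lack introns and lie in clusters, and their transcripts usually end in a conserved stem-loop rather than a poly(A) tail. The stem-loop is bound by SLBP, which takes part in the processing, translation and decay of these RNAs. The libraries were made from RNA depleted of ribosomal RNA, a preparation that does not select for poly(A) tails. In activated CD8+ T cells, which divide rapidly, these genes are a usual readout of DNA replication.

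On GRCm38, 48 of the 49 members on chromosome 13 lay within 2049 kb. Of these, 19 lay at chr13:21715763-22043676 and 29 at chr13:23531050-23764406, and *Hist1h2al*, a pseudogene, lay apart at chr13:51202727-51203065. The other members were 8 genes on chromosome 3, 3 on chromosome 11 and *Hist4h4* alone on chromosome 6. By annotation, 59 members were protein coding and 2, *Hist1h2al* and *Hist3h2bb-ps*, were pseudogenes.

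The stem-loop was searched for in the annotated transcripts as a 6-base stem that pairs perfectly around a 4-base loop, beginning with GG and with a loop that begins with TT. It was found in 40 of the 61 members, and in 119 of 55380 other genes (0.215%). A further 10 members have models that end with the coding sequence and cannot hold it. The 40 members carried 6 different hairpins, of which 1 example each is shown to make the difference between classes visible, with the 16 bases of the hairpin in capitals and 5 bases on each side, all in the 3′ UTR and written as DNA.
Hist1h1c: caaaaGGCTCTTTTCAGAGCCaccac
Hist1h2bb: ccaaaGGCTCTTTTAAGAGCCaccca
Hist2h2ac: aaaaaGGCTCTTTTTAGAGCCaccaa
Hist1h4f: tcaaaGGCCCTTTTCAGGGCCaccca
Hist1h4i: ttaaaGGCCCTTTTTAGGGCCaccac
Hist1h4b: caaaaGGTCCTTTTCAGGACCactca

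The first 3 hairpins begin with GGCTC and were found in H1, H2A, H2B and H3 genes, with 22, 6 and 1 members in the order shown. The last 3 were found in H4 genes alone, with 7, 2 and 2 members. Thus the stem differed between H4 and the other classes. The search fixed the TT that begins the loop, and among the hairpins found only the last base of the loop differed. The called gene described below, *Hist1h1a*, had no hairpin of this form in its model. In 24 members the annotated transcript runs more than 50 bases past the stem-loop, by up to 4884 bases in *Hist1h1d*, and in 16 it ends within 50 bases.

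Upstream sequences of RefSeq starts on GRCm38.p6 were matched for 53 members. The 250 bases before the start were searched on both strands for CCAAT (or ATTGG), the CCAAT box, for ATGCAAAT (or ATTTGCAT), the octamer bound by OCT1, and for TATAAA (or TTTATA), the TATA box. Matches of different motifs could overlap. The CCAAT box was found in 43 of 53 members (81.1%, against 33.9% of 32851 promoters of all genes), and in the H4 class in 3 of 12. The octamer was found in 11 members (20.8%, against 1.601% of all), which were 6 of 14 H2A and 5 of 13 H2B genes and none of the H1, H3 or H4 genes. TATAAA was found in 26 members (49.1%, against 12.4%). The 150 bases before the start are given for the called linker histone gene, for an H2A gene with a large difference, for an abundant H2B gene and for the H4 gene with the most counts, with the motifs in capitals. They lie at chr13:23763518-23763667, chr13:23683960-23684109, chr13:23571250-23571399 and chr13:23581418-23581567, and *Hist1h2ac* is on the minus strand.
Hist1h1a: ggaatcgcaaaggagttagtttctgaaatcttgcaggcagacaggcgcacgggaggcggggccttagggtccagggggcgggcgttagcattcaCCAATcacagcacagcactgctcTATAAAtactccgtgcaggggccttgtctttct
Hist1h2ac: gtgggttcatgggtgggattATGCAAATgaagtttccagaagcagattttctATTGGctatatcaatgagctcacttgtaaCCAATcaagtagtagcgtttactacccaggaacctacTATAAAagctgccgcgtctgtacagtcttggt
Hist1h2bg: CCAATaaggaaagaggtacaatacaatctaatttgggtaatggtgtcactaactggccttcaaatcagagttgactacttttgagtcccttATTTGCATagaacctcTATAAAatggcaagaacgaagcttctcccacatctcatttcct
Hist1h4d: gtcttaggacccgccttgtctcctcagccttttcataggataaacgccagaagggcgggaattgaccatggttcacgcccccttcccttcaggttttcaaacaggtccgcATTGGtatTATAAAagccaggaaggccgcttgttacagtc

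Many members are near copies of each other. Of 61 members, 34 had fewer than 50% of their 42-base words in no other gene, 42 bases being near the read length given in the study's methods, and 2 were wholly unique, *Hist1h1a* and *Hist1h1t*. How reads that align to several places were counted is not given in the sources used here, so values of a single member of low uniqueness are uncertain and sums over a class are given beside them. *Hist1h1e* and *Hist1h2be* share 496 exon bases on the same strand. Words were compared on both strands, so a word in an antisense gene model at the same place also counted as shared. *Hist2h2bb*, *Hist2h3b* and *Hist2h2aa2* had no unique 42-base word and overlap an antisense gene model over their whole length. Their value cannot tell copies elsewhere from this overlap. Every H2A member overlaps such a model at least in part, *Hist1h2ak* over 138 of its 393 bases, so low uniqueness in this class is not a measure of near copies alone. Whether the counting used strand is not given either.

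Total counts on genes ranged from 11657807 to 30295406 per sample, and 3 counts corresponded to 0.105 to 0.25 CPM, the unit of counts scaled to the library total times its TMM factor (0.9405 to 1.0458). *Gm26917*, a noncoding gene, had 66100 to 143300 CPM. As a check of the labels, *Kdm1a* had 44.5, 47.1, 42.6 and 44.8 CPM in the WT samples (called S1 to S4 throughout, in this order) and 25.2, 30.5, 31.98 and 34.7 CPM in the KO samples (S5 to S8). All KO values lay below all WT values, and the log2 fold change was -0.55 (SE 0.14, adjusted p = 0.0163 by edgeR's quasi-likelihood test with Benjamini-Hochberg adjustment over 15378 genes). This missed the call used throughout, a fold change over 1.5 with an adjusted p under 0.01. Of 12 CD8 T cell markers, 2 were called higher in KO and none lower. Most of the list went the other way, with 9 of 12 below 0 and a median log2 fold change of -0.22. At an unadjusted p under 0.05 by edgeR, 5 were lower and 2 higher, against 12.1% and 12.4% of all genes. *Cd44*, a gene of the sort gate, had 432 ± 39.6 CPM in WT and 784 ± 136 CPM in KO (log2 fold change 0.86, adjusted p = 0.000107 by edgeR), *Cd2* had 144 and 251 CPM on average (log2 fold change 0.80, adjusted p = 6.73e-05 by edgeR), and *Cd8a*, which was not called, had 1338 ± 93.1 and 1107 ± 107 CPM (SD, n = 4 each). Markers of myeloid cells differed between genotypes: 12 of 17 tested were called lower in KO, among them *Lyz2*, *Apoe*, *H2-Aa* and *H2-Ab1* with log2 fold changes of -3.01, -3.02, -2.17 and -2.11, and the 18 listed summed to 469, 571, 1451 and 798 CPM in WT and to 330, 339, 235 and 237 CPM in KO. One of 3 B cell markers tested, *Ighm*, was called lower. *Cd79a* was higher without a call (log2 fold change 2.68), with means of 0.302 CPM in WT and 2.07 CPM in KO, and *Cd79b* had -0.485. None of 3 NK cell markers was called. *Klrb1c* had a log2 fold change of 3.12, with means of 0.458 and 3.85 CPM, *Gzma* one of 0.56 and *Eomes* one of -0.86. For *Cd79a* and *Klrb1c*, both at a low level, every KO sample lay above every WT sample. None of 2 tumor epithelial or stromal markers was called, and *Krt8*, *Krt19* and *Pdgfrb* had no count in any sample. The part of myeloid RNA in the histone values was not tested.

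Histone RNA varied more between samples of a genotype than between genotypes. The members summed to 2044, 3409, 2016 and 3227 CPM in the WT samples and to 1749, 2155, 2451 and 2856 CPM in the KO samples. S2 and S4 were the highest of all samples, S1 and S3 lay near the low end, and S5 was the lowest, so the genotypes overlapped. The means were 2674 ± 747 CPM in WT and 2303 ± 468 CPM in KO (SD, n = 4 each), a log2 ratio of -0.22. The highest WT sample had 1.69 times the sum of the lowest WT sample, and the corresponding ratio within KO was 1.63. Without S2 the log2 ratio was -0.08, without S4 -0.11 and without S5 -0.10, whereas without S3 it was -0.33 and without S8 -0.33. In a sorted bulk sample, fewer cells in S phase and less histone RNA per cell cannot be told apart.

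**Figure D1:**
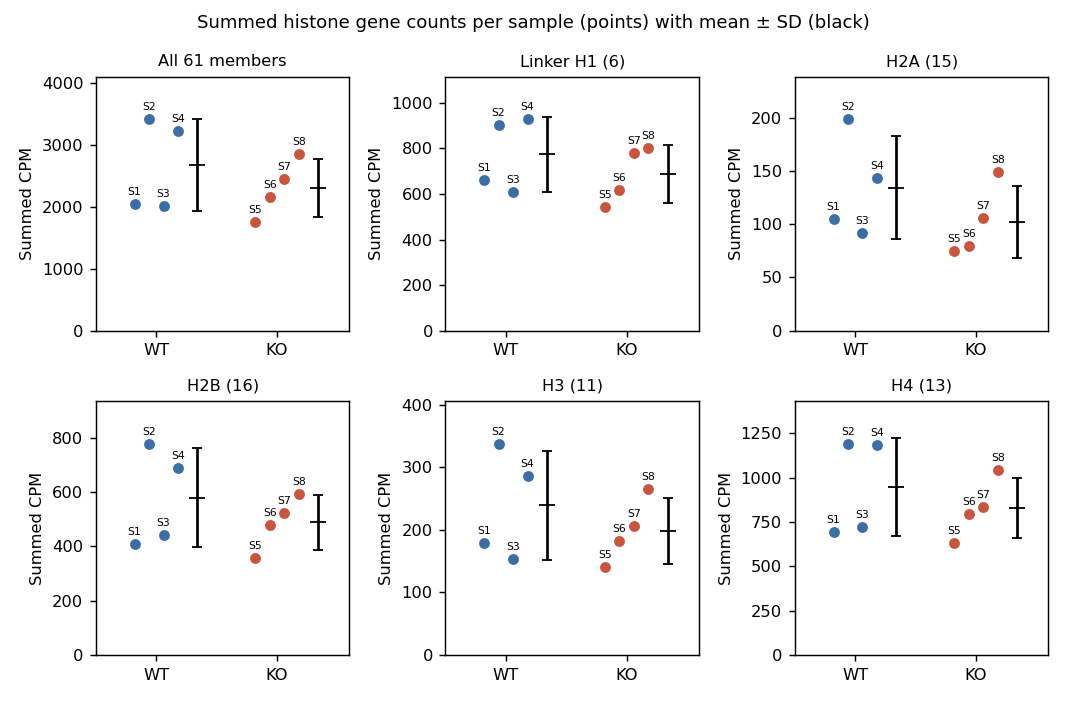
Summed CPM (y axis, from 0) of all 61 histone genes and of each histone class in the 4 WT and 4 KO samples, each point 1 sample, with the mean ± SD in black beside them. In every class S2 and S4 were the highest WT samples and S5 was the lowest KO sample, and the genotypes overlapped.

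In all 5 classes S2 and S4 were the highest WT samples and S5 the lowest KO sample. S2 or S4 was the highest of all samples in each class, though for H2A S8 was above S4. The linker histone H1 genes, whose proteins bind the DNA between nucleosomes, summed to 660, 904, 609 and 928 CPM in WT and to 544, 619, 782 and 803 CPM in KO. The H4 genes, which form the core of the nucleosome with H3, summed to 691, 1191, 721 and 1181 CPM in WT and to 634, 797, 835 and 1044 CPM in KO. The H2B genes, whose protein pairs with H2A, summed to 410, 778, 441 and 690 CPM in WT and to 356, 478, 523 and 594 CPM in KO. In these 3 classes the KO range lay mostly inside the WT range.

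The H3 genes summed to 179, 338, 154 and 285 CPM in WT and to 140, 181, 206 and 265 CPM in KO. The H2A genes had the lowest sums, with 105, 199, 91.4 and 143 CPM in WT and 74.6, 79.8, 105 and 149 CPM in KO. The log2 ratios of the group means were -0.17 for H1, -0.40 for H2A, -0.25 for H2B, -0.27 for H3 and -0.19 for H4, and the SD within a genotype exceeded the difference between the means in each class. H4 genes held 35.6% of the members' CPM, H1 genes 29.4%, H2B genes 21.5%, H3 genes 8.78% and H2A genes 4.76%. The H4 share stayed between 33.8% and 37.0% of each sample's histone counts and the H1 share between 26.5% and 32.3%. The smaller classes varied more for their size, H2A from 3.70% in S6 to 5.83% in S2 and H3 from 7.62% in S3 to 9.90% in S2. The sums of CPM are not adjusted for gene length, and the classes differ in the length of their models. A choice made after seeing the data kept members of at least 50% unique 42-base words, 3 for H2A and 1 for H3. The log2 ratios of these classes were then -0.76 and -0.55. It left out the H2A members with the most counts, *Hist1h2ak*, *Hist1h2ab* and *Hist2h2ac*, which partly overlap antisense models. Their log2 fold changes were -0.28, -0.66 and -0.02, against -0.92, -0.62 and -0.68 for *Hist1h2ac*, *Hist3h2a* and *Hist1h2ae*, which were kept. The H2A value thus depends on how uniqueness was counted.

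The order of samples was shared by most single members. In 44 of 59 members tested (74.6%), both S2 and S4 exceeded both S1 and S3, against 3153 of all 15378 genes tested (20.5%), an order looked for after its values were seen. S2 was the highest of all samples for 38 members, S4 for 16 and S1 for 1. Among KO samples, S5 was the lowest for 37 members (62.7%, against 28.2% of all genes tested) and S8 the highest for 45 (76.3%, against 23.2%). The median member lay 0.39 log2 units above its WT mean in S2 and 0.25 above it in S4, 0.40 below it in S1 and 0.43 below it in S3.

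**Figure D2:**
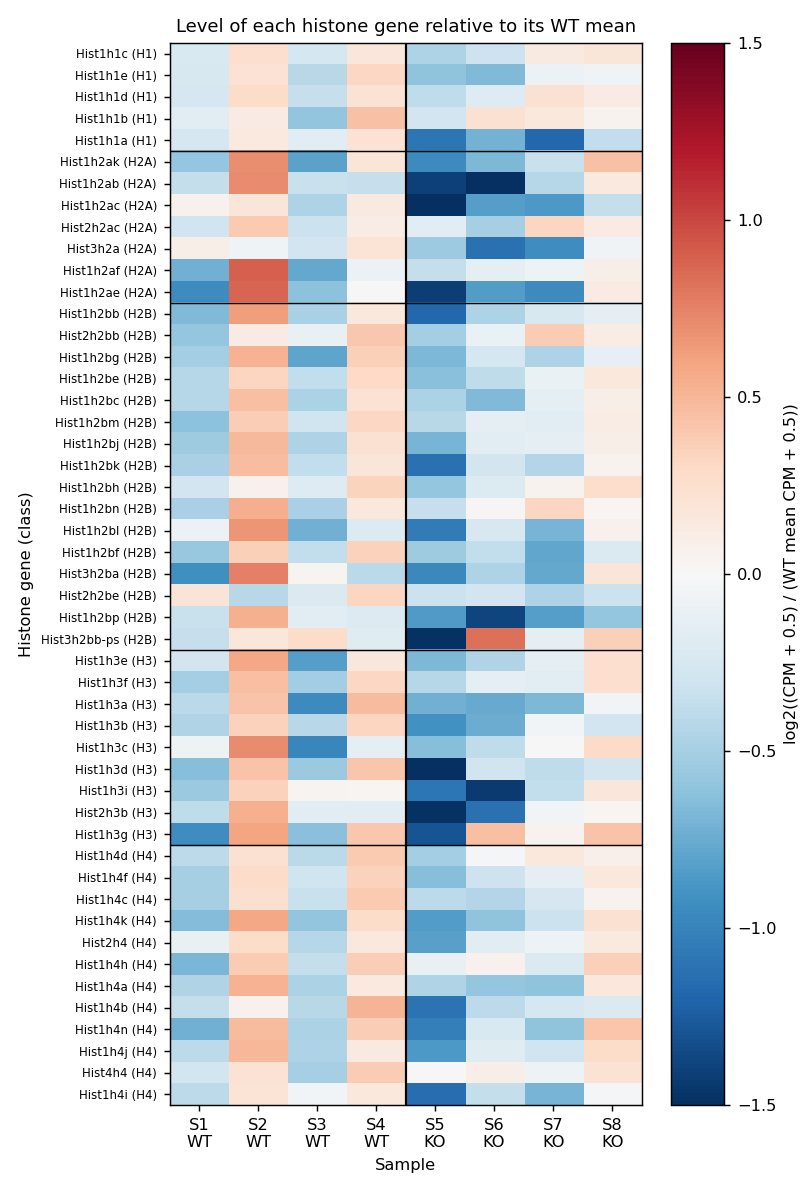
Colour shows the log2 ratio of each gene's CPM in a sample (columns) to its mean over the WT samples, with a pseudocount of 0.5 CPM and the scale ending at 1.5, for the 49 tested histone genes with a WT mean of at least 5 CPM (genes in lines, grouped by class and ordered by WT mean). S2 and S4 are red and S1 and S3 blue for most genes, S5 is the bluest KO sample and S8 the reddest.

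Of the 61 members, 59 passed the filter on low counts and were tested. One was called lower in KO, *Hist1h1a*, and none was called higher, whereas 1.99% of all 15378 genes tested were called lower and 2.91% higher. At an unadjusted p under 0.05, 6 members were lower and none was higher, against 12.1% of all genes for the lower and 12.4% for the higher direction. The 4 KO values all lay below the 4 WT values in 2 members, *Hist1h1a* and *Hist1h2bp*, against 8.28% of all genes, and all above them in none, against 8.99%. DESeq2, run on all 61 members, called none higher, against 2.31% of 26530 genes, and 2 lower, *Hist1h1a* and *Hist1h4m*, against 1.9%.

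The signs of the members' log2 fold changes were mostly negative. Of 59 members, 50 were below 0 (84.8%, against 51.4% of all genes tested). Their median was -0.26, against -0.01 for all genes, with a range from -0.96 to 0.80 and quartiles of -0.46 and -0.08. These values are not independent, since the members move together from sample to sample and near copies share reads. The median was -0.08 without S2, -0.40 without S3, -0.17 without S4, -0.16 without S5 and -0.42 without S8. By class, 4 of 5 H1, 13 of 15 H2A, 13 of 16 H2B, 10 of 11 H3 and 10 of 12 H4 genes were below 0, with medians of -0.09, -0.40, -0.32, -0.21 and -0.23. The 33 tested members of lower uniqueness had a median of -0.26 and the 26 others one of -0.26, so the medians were alike.

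**Figure D3:**
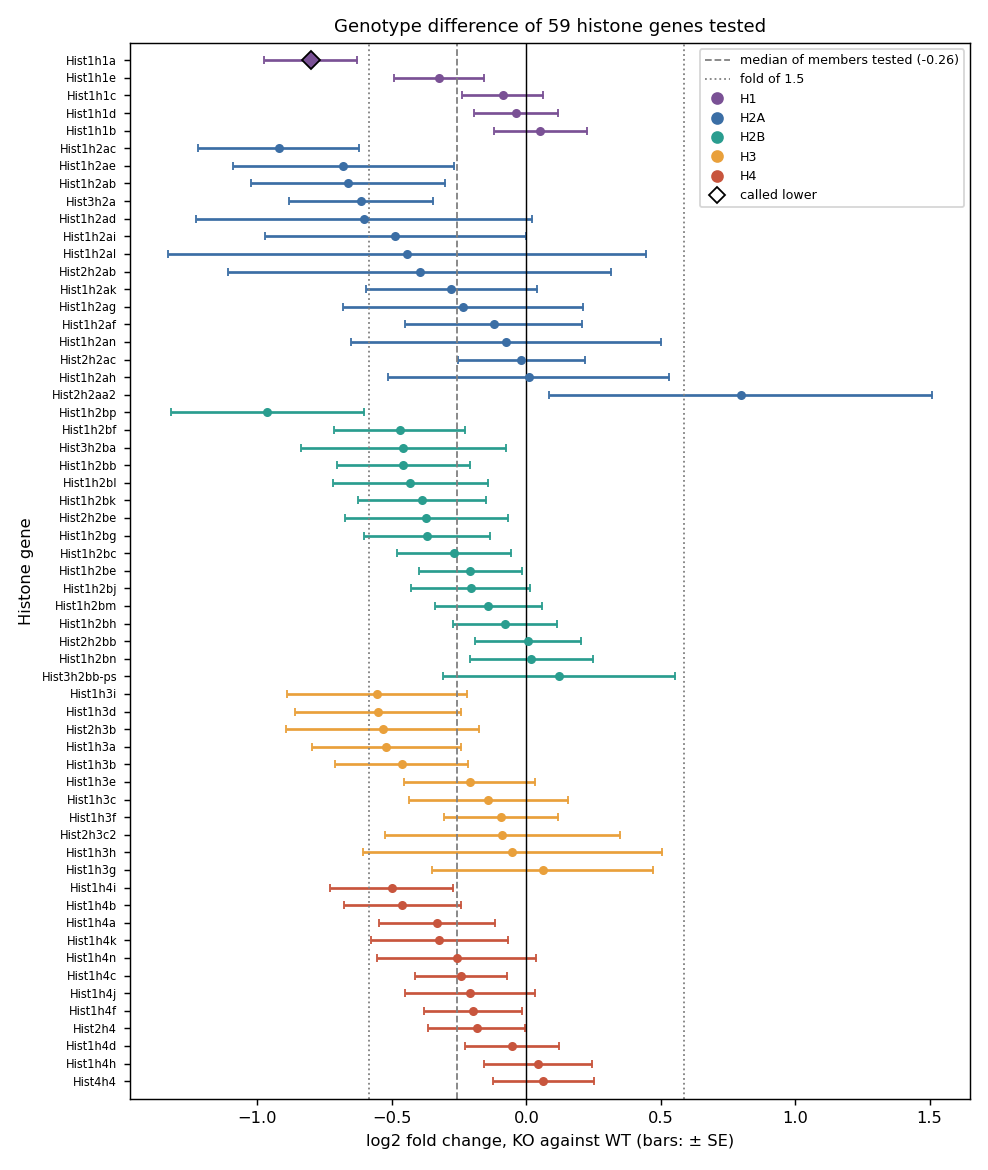
Log2 fold change of KO against WT (x axis, bars ± SE) for the 59 histone genes tested, coloured by class, with a diamond for the gene called lower, a dashed line at the members' median of -0.26 and dotted lines at a fold of 1.5. Of the 59 genes, 50 lie left of 0. The bar of 1 SE reaches 0 for 29 of the 59 and the members' median, which comes from these same values, for 42.

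*Hist1h1a*, a linker histone gene of the chromosome 13 cluster (chr13:23763666-23764406), had 60.2, 79.6, 64.5 and 83.9 CPM in WT and 33.7, 43.8, 31.6 and 55.7 CPM in KO. The genotypes did not overlap, with means of 72.0 ± 11.5 CPM in WT and 41.2 ± 11.1 CPM in KO (SD, n = 4 each). It fell by 0.80 on the log2 scale (SE 0.17, adjusted p = 0.00554 by edgeR's quasi-likelihood test). An exact two-sided permutation test of its log2 CPM gave p = 0.0286, the smallest that 4 against 4 samples allow. The adjusted p passed 0.01 without S2 (0.0257), S4 (0.0268), S5 (0.0172), S6 (0.0139) or S7 (0.0235), so the call rested on each of these samples, whereas the log2 fold change stayed between -0.99 and -0.69.

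The other linker histone genes tested were not called, and their genotypes overlapped. *Hist1h1c*, the member with the most counts, had 237, 332, 231 and 313 CPM in WT and 202, 223, 305 and 316 CPM in KO (log2 fold change -0.09, SE 0.15, adjusted p = 0.793 by edgeR). *Hist1h1e* had 168, 230, 149 and 247 CPM in WT and 131, 125, 186 and 191 CPM in KO (log2 fold change -0.33, SE 0.17). Its KO samples all lay below S2 and S4 and overlapped S1 and S3. *Hist1h1d* had 104, 151, 97.5 and 144 CPM in WT and 95.0, 108, 145 and 135 CPM in KO, and *Hist1h1b*, another linker histone gene of dividing cells, had 101 ± 30.04 and 105 ± 15.5 CPM (SD, n = 4 each). Both had S2 and S4 as the highest WT samples, and their genotypes overlapped.

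Within the H1 class, *Hist1h1a* made up 9.13%, 8.80%, 10.6% and 9.04% of the summed CPM in the WT samples and 6.19%, 7.07%, 4.04% and 6.93% in the KO samples. This share does not depend on how libraries were scaled, and S2 and S4 no longer stood apart from S1 and S3. The log2 ratio of *Hist1h1a* to the other 5 H1 genes was lower by -0.72 in KO (exact two-sided permutation test, p = 0.0286, the smallest possible, for a ratio chosen after seeing the values). Per kilobase of model, *Hist1h1a* had 97.2 CPM in WT and 55.6 in KO, *Hist1h1b* had 136.5 and 142, and *Hist1h1c* had 178 and 168. *Hist1h1t*, the testis linker histone gene, had 37 counts in all and was not tested.

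**Figure D4:**
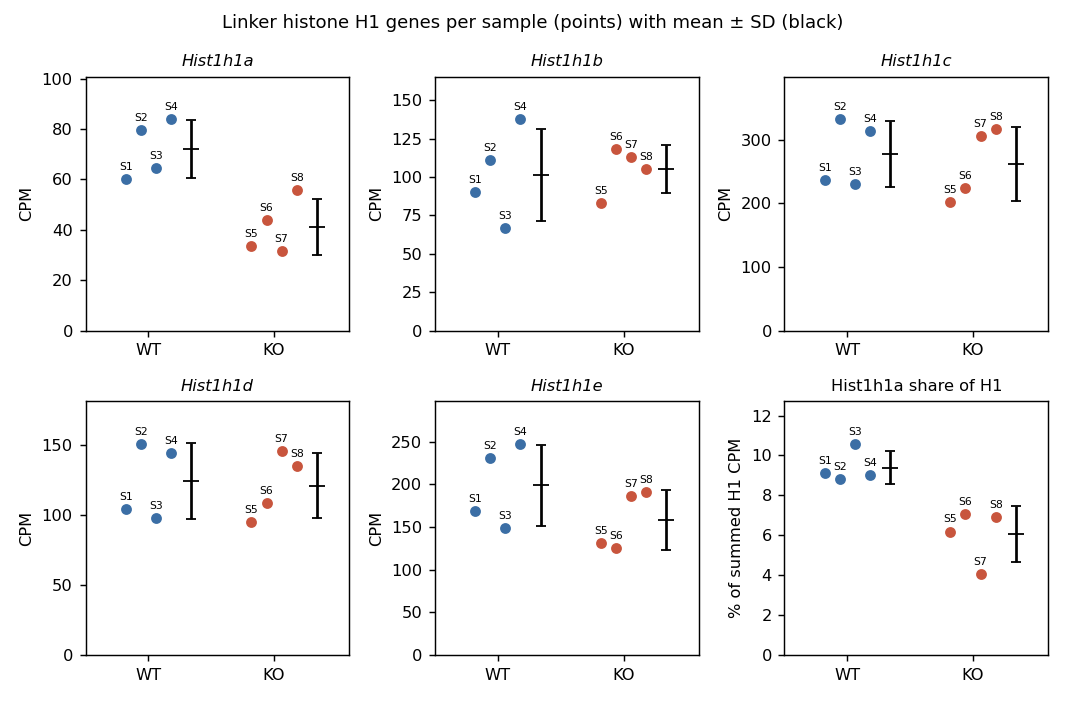
CPM (y axes, from 0) of 5 linker histone genes in the WT and KO samples, each point 1 sample with the mean ± SD in black, and the percent of the summed H1 CPM that came from Hist1h1a. Hist1h1a and its share separate the genotypes, with 8.80% or more in each WT and 7.07% or less in each KO sample, and the other 4 genes overlap.

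Among H2A genes, *Hist1h2ac* had 15.7, 16.97, 10.7 and 16.5 CPM in WT and 3.60, 8.23, 7.995 and 11.6 CPM in KO. Only S8 reached above the lowest WT sample, and the log2 fold change of -0.92 (SE 0.30, adjusted p = 0.0577 by edgeR) was not called. *Hist1h2ak*, the H2A gene with the most counts, had 19.5, 48.0, 16.6 and 33.4 CPM in WT and 14.9, 18.3, 23.2 and 40.0 CPM in KO (log2 fold change -0.28, SE 0.32). *Hist1h2ab* had 15.1, 32.3, 15.4 and 15.2 CPM in WT and 7.07, 5.81, 14.3 and 21.7 CPM in KO (log2 fold change -0.66, SE 0.36). S2 was the highest sample for both, and for *Hist1h2ab* the other 3 WT samples lay close together. *Hist2h2ac*, from the chromosome 3 cluster, had 14.8 ± 3.75 CPM in WT and 14.7 CPM in KO on average. The highest log2 fold change of any member, 0.80 (SE 0.71), belonged to *Hist2h2aa2*, which had 0.407 to 3.14 CPM and no unique 42-base word.

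Among H2B genes, *Hist1h2bp* had 5.34, 10.2, 6.11 and 5.93 CPM in WT and 3.60, 2.34, 3.66 and 4.46 CPM in KO. The genotypes did not overlap and the log2 fold change was the lowest of the members, -0.96 (SE 0.36, adjusted p = 0.0985 by edgeR), at a low level and with 1 high WT sample. *Hist1h2bb*, the H2B gene with the most counts, had 50.2, 124, 57.0 and 89.1 CPM in WT and 35.2, 57.9, 67.7 and 72.4 CPM in KO (log2 fold change -0.46, SE 0.25). *Hist1h2be* had 50.6, 85.5, 52.9 and 84.3 CPM in WT and 44.15, 52.5, 63.6 and 76.0 CPM in KO. *Hist1h2bb* followed the order of the class sum, and *Hist1h2be* did so except that S3 lay just above S6. *Hist2h2bb* differed by a log2 fold change of 0.01 (SE 0.20) and the pseudogene *Hist3h2bb-ps* by 0.12 (SE 0.43), with 1.70 to 10.4 CPM among its KO samples.

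Among H3 genes, *Hist1h3e* had 51.4, 93.5, 34.9 and 70.2 CPM in WT and 39.0, 45.6, 56.6 and 74.4 CPM in KO (log2 fold change -0.21, SE 0.24). *Hist1h3a* had 21.1, 37.9, 14.3 and 39.3 CPM in WT and 16.8, 16.5, 17.4 and 27.4 CPM in KO (log2 fold change -0.52, SE 0.28, adjusted p = 0.265 by edgeR). S3 was the lowest WT sample in both, below every KO sample. *Hist1h3f* had a log2 fold change of -0.09 (SE 0.21) and *Hist1h3g* one of 0.06 (SE 0.41).

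Among H4 genes, *Hist1h4d*, with the most counts of its class, had 139, 214, 137 and 239 CPM in WT and 128, 180, 203 and 192 CPM in KO (log2 fold change -0.05, SE 0.18). *Hist1h4f* had 95.9, 164, 110 and 173 CPM in WT and 87.1, 110, 123 and 152 CPM in KO (log2 fold change -0.20, SE 0.18), and its level per kilobase of model, 347 CPM in WT and 302 in KO, was the highest of all members. *Hist1h4c* had a log2 fold change of -0.24 (SE 0.17) and *Hist4h4*, outside the clusters, one of 0.06 (SE 0.19). These 4 genes lay within about 1.5 SE of 0. *Hist1h4b* (log2 fold change -0.46, SE 0.22, unadjusted p = 0.0495 and adjusted p = 0.202 by edgeR) and *Hist1h4i* (-0.50, SE 0.23) lay lower.

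*Hist1h4m* stood apart. Its counts were 58, 222, 107 and 0 in the WT samples and 0, 0, 0 and 3 in the KO samples, so that S4, a WT sample, held none. It did not pass the filter, and it was singled out after its values were seen. Fitted with no filter it was called lower with an adjusted p of 5.88e-14 by edgeR, and DESeq2 gave 0.0095, and it also passed the filter and was called when S4, S5, S6, S7 or S8 was left out. Only 9.97% of its 42-base words are unique. Its neighbour *Hist1h4n*, with 14.1% unique words, had 19.7, 45.7, 23.5 and 42.5 CPM in WT and 15.9, 27.9, 21.5 and 43.9 CPM in KO, with no such absence. Whether reads of near copies were assigned differently between samples was not tested.

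The log2 fold changes of neighbouring genes lay close in some pairs and apart in others. In 10 pairs of an H2A and an H2B member the starts of the annotated models lay head to head, 173 to 302 bases apart. Some of these models hold the coding sequence alone, so distances between RefSeq starts can differ. Both genes of a pair were below 0 in 7 of these 10 pairs. The log2 fold changes were -0.92 for *Hist1h2ac* and -0.27 for *Hist1h2bc*, -0.08 for *Hist1h2an* and -0.96 for *Hist1h2bp*, and -0.68 for *Hist1h2ae* and -0.37 for *Hist1h2bg*, whose shared upstream region is the third promoter printed above. The closest of the 10 pairs were *Hist1h2ag* and *Hist1h2bj*, which differed by 0.03, and *Hist1h2bl* and *Hist1h2ai*, which differed by 0.06. The median absolute difference within a pair was 0.33 on the log2 scale. Differences within a pair were not tested, and the SE was 0.58 for *Hist1h2an* and 0.36 for *Hist1h2bp*. By cluster, 15 of 18 tested members of the chromosome 13 group at lower coordinates and 26 of 28 of the group at higher coordinates were below 0, with medians of -0.25 and -0.30, and 6 of 8 on chromosome 3, with a median of -0.14. By transcript end, the 15 tested members whose model ends within 50 bases of the stem-loop had a median of -0.39 and the 23 whose model runs on had one of -0.21, and neither figure was tested against the other.

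At the floor of the rule, the members with the fewest counts were *Hist1h1t* with 37 and *Hist1h2al* with 104 counts over the 8 samples. Just outside it were *Hist1h2bq* with 7 and *Hist1h2aa* with 4 counts. In all 9 genes of such symbols fell under 20 counts, 4 of them with none.

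The histone sums were set beside lists of related genes in the same libraries. Of 42 S phase replication factors, 1 was called lower and none higher, *Tk1*, the thymidine kinase of the nucleotide salvage pathway. It had 36.65, 37.1, 46.25 and 47.5 CPM in WT and 20.04, 25.6, 23.3 and 22.9 CPM in KO and fell by 0.87 on the log2 scale (SE 0.15, adjusted p = 0.00118 by edgeR). The genotypes did not overlap for *Tk1*. *Pcna*, the sliding clamp of DNA polymerase, had 243 ± 23.9 and 237 ± 33.4 CPM (SD, n = 4 each), and *Mcm4*, a subunit of the replicative helicase, had a log2 fold change of -0.48 (SE 0.15, adjusted p = 0.0495 by edgeR). The median of the list was -0.22 and 34 of 42 were below 0, against -0.26 and 50 of 59 for the histone members and -0.01 for all genes.

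The replication factors summed to 1866, 1970, 1727 and 2252 CPM in WT and to 1441, 1875, 1683 and 1722 CPM in KO. S4 and S2 were again highest and S5 lowest, but the highest sample of all had 1.56 times the lowest, against 1.95 times for the histone members. Counts of histone members per count of the replication factors were 1.10, 1.73, 1.17 and 1.43 in WT and 1.21, 1.15, 1.46 and 1.66 in KO, and so overlapped widely. Of 28 genes of G2 and mitosis none was called, with a median of -0.08, and *Mki67*, a marker of cycling cells, had 633 ± 66.9 CPM in WT and 582 ± 56.3 CPM in KO (SD, n = 4 each). S8, the KO sample with the most histone RNA, was second lowest of all for these genes with 1504 CPM in sum.

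**Figure D5:**
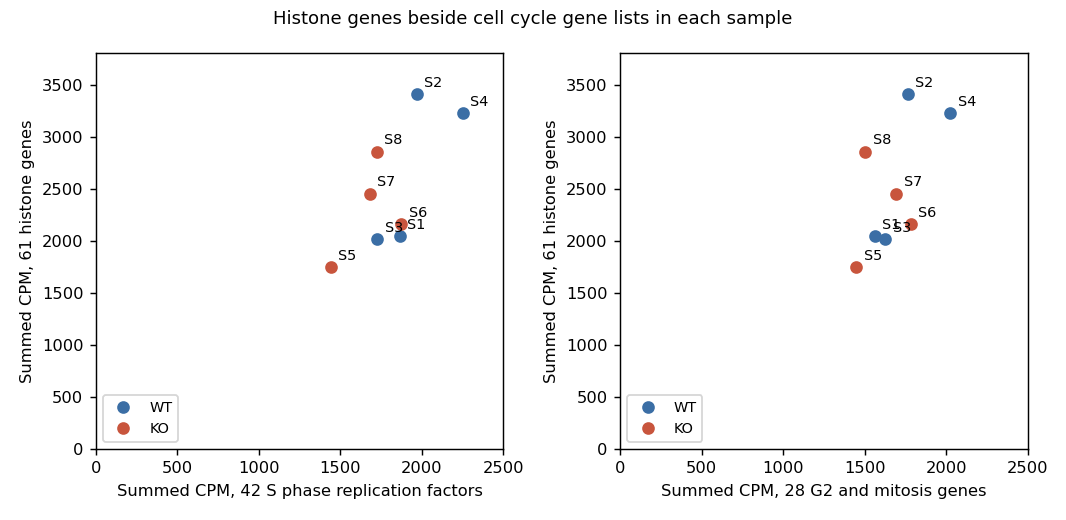
Summed CPM of the 61 histone genes (y axis) against the summed CPM of 42 S phase replication factors (left, x axis) and of 28 G2 and mitosis genes (right, x axis), each point 1 sample, WT blue and KO red, axes from 0. S2 and S4 lie highest, S5 lies lowest on the y axis, and S7 and S8 have more histone RNA than S1 and S3 at lower sums of the replication factors.

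Genes that make or handle histones held no call. Of 21 genes for the synthesis and processing of histone mRNA none was called, with a median of 0.04. *Slbp*, which binds the stem-loop, had 70.6 ± 5.63 CPM in WT and 82.0 ± 11.6 CPM in KO, and *Npat*, the coactivator of histone gene transcription, had 87.9 ± 2.17 and 96.03 ± 6.97 CPM (SD, n = 4 each). Of 21 histone chaperones none was called, with a median of -0.13. Of 9 replication-independent histone genes tested none was called, with a median of -0.01. *Cenpa*, the centromeric H3 variant, had 111 ± 7.37 CPM in WT and 78.1 ± 5.81 CPM in KO, with a log2 fold change of -0.51 under the required fold and an adjusted p of 0.00355 by edgeR. *H3f3b*, which encodes the H3.3 variant, had 446 ± 32.5 and 370.2 ± 44.8 CPM (adjusted p = 0.101 by edgeR). At an unadjusted p under 0.05, 2 processing genes were lower and 1 higher, 4 chaperones lower and 2 higher, 3 of the G2 and mitosis genes lower and 1 higher, 3 of the 9 replication-independent histones lower and none higher, and 11 of the 42 replication factors lower and none higher, against the 12.1% of all genes that were lower and the 12.4% that were higher. DESeq2 made 1 call in these lists, a replication factor called lower.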

How the data were processed

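RNA-seq gene counts of 4 WT and 4 KO samples were used. The deposited values are raw counts per gene, which the authors made with featureCounts on GENCODE genes after STAR alignment to GRCm38, neither normalized nor pooled. The columns are called S1 to S8 here and carry no replicate numbers. They were assigned to genotypes by the legend of the study's principal component plot. The group means of raw counts in the study's list of differential genes equal the means of these columns. WT samples were pools of mice and KO samples single mice.

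Counts were fitted with edgeR 4.0.16 in R 4.3.3 (filterByExpr, TMM, quasi-likelihood test) over 15378 genes, with Benjamini-Hochberg adjustment. The SE was derived from the log2 fold change and its F statistic. CPM of single genes were also compared by exact permutation tests on the log2 scale (prior count of 2). Alternatives were other scaling and filters, DESeq2 1.42.0, the likelihood ratio test, an adjusted p under 0.05 without a fold, GC offsets (mgcv 1.9.3), a floor of 100 counts and leaving out each sample. The authors' own test used DESeq2 after a GC correction. Apart from the group means of raw counts that served to assign the columns, its values were not used here.

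Symbols, models and stem-loops came from GENCODE M21 (GRCm38), which matched 55154 of 55335 gene IDs, and promoters from RefSeq. Members and gene lists were chosen with earlier results of these data known. Named genes were members called, the 3 with the most counts per class, the 3 highest and 3 lowest log2 fold changes with a mean log2 CPM above 2, members at the count floor, and, of other lists, at most 4 called genes and the 3 with the most counts, not all of which are printed. The other genes named (*Hist1h4m*, *Hist1h4n*, *Hist1h1b*, *Hist1h4b*, *Hist1h4i*, *Hist2h2aa2*, genes of head-to-head pairs, *Slbp*, *Npat* and *Gm26917*) were chosen after their values were seen. The fit was tested on simulated data: in 3 draws for KO against WT with 200 of 15378 genes changed, 47% to 51.1% of 2-fold and 75.5% to 77.1% of 4-fold changes were called, with 1 to 4 false calls. The counts of samples of a genotype differed by more than sampling noise in all 12 pairs. Floors cover counting error only.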

Additional observations from a re-analysis of the deposited data

Results flagged for a closer look

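The level of a member in 1 sample lay far from the other 3 samples of its genotype in 3 of 56 groups checked, about the 2.8 that chance gives at 1 in 20. In each, the gap to the nearest sample took more of the group's range than Dixon's 95% critical value for 4 samples, 0.829. *Hist1h2ab* had 32.3 CPM in the WT sample S2 and 15.1 to 15.4 CPM in the other WT samples, a gap of 0.985 of the range. *Hist1h2bp* had 10.2 CPM in S2 and 5.34 to 6.11 CPM in the others, a gap of 0.84. *Hist1h3a* had 27.4 CPM in the KO sample S8 and 16.5 to 17.4 CPM in the others, a gap of 0.913. S2 and S8 are the samples with the most histone RNA of their genotype.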

How the results depend on the processing

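No paired analysis was possible because the columns of the count table carry no replicate numbers. The number of members called lower was 2 with no filter and with DESeq2, the second being *Hist1h4m*, and 0 to 2 when 1 sample was left out; none was called higher under any setting run. The members' median log2 fold change stayed below 0, from -0.42 to -0.08 without 1 sample and from -0.29 to -0.18 otherwise, and the log2 ratio of summed CPM from -0.33 to -0.08 and from -0.24 to -0.19. Members with every KO sample below every WT sample were 2 to 5 without 1 sample, 5 of them without S8. The share over all genes is not given for these settings, and fewer samples separate more easily, so these counts were not interpreted. *Hist1h1a* kept a log2 fold change between -0.99 and -0.69, and its adjusted p was 5.06e-07 to 0.0268. At an adjusted p under 0.05 without a fold threshold, 3 S phase factors (*Tk1*, *Mcm2*, *Mcm4*) were lower, 1 G2 and mitosis gene (*Prc1*) and 1 processing gene (*Tut7*) higher, 1 chaperone (*Npm1*) lower and 2 (*Ubn1*, *Cabin1*) higher, 1 replication-independent histone (*Cenpa*) lower, and *Kdm1a* passed with -0.55. The cause was not tested beyond the thresholds themselves.

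Signs turned in members near 0: *Hist2h2bb* was -0.0168 with upper quartile factors and -0.0212 with library size alone, and with GC offsets *Hist2h2ac* was 0.0802 and *Hist1h4d* 0.0084. Without 1 sample the log2 fold changes ranged from -0.19 to 0.0208 for *Hist1h1c*, -0.14 to 0.068 for *Hist1h1d*, -0.65 to 0.0643 for *Hist1h2ak*, -0.15 to 0.14 for *Hist2h2ac*, -0.15 to 0.17 for *Hist2h2bb*, -0.41 to 0.0492 for *Hist1h3e*, -0.24 to 0.10 for *Hist1h3f*, -0.17 to 0.10 for *Hist1h4d*, -0.16 to 0.35 for *Hist1h3g*, -0.0707 to 0.22 for *Hist4h4* and -0.24 to 0.43 for *Hist3h2bb-ps*.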
